A study of Homo sapiens with 11 samples.

Results

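Collagens are the triple-helical proteins of the extracellular matrix, and each chain is encoded by its own COL gene. All 43 genes described here carry a symbol made of COL, a type number, the letter A and a chain number, and a RefSeq identifier starting NM_, in both deposited expression tables. The symbol rule, applied to 23287 listed genes, uses no measured value, although collagens were chosen as the subject with earlier results of these data known. RNA was sequenced from the human embryonic stem cell lines H1 and H7, 11 libraries in all. For 9 of them, cells were infected with lentivirus carrying 1 of 3 shRNAs (control, uCCNE1 or pCCNE1) and collected at day 5. According to the study's title, pCCNE1 is a splice variant found only in primates, made from CCNE1, which encodes cyclin E1. Each shRNA was used in 3 cultures, namely H1 in primed medium, H7 in the naive medium 5iLA and H1 in the naive medium t2iGo. Untreated H7 cells, primed or held in 5iLA, gave the other 2 libraries.

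Each group held 1 library, so no group had a replicate, and the labels name no separate cultures of a group. H1 and H7 are each a single line, and the 5iLA and t2iGo cultures used different lines. Line and medium therefore cannot be told apart between these cultures. Whether feeder cells were used, and whether they were removed before RNA extraction, is not given in the sources used here.

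Collagen chains fold in threes inside the endoplasmic reticulum, with the help of hydroxylases and chaperones, before they are secreted, trimmed and cross-linked. Fibrillar collagens such as types I, III and V form the fibres of connective tissue and are known as products of fibroblasts and mesenchyme. Type IV collagen forms the mesh of basement membranes together with laminin, nidogen and perlecan, and it is among the matrix proteins made by early embryonic epithelium. Smaller classes decorate fibres, anchor epithelium or stay in the cell membrane.

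The depth estimated from the steps of low RPKM values (read counts scaled for transcript length and library size) ran from 6.38 to 24.1 M reads, lowest in the t2iGo pCCNE1 library. A single read on a 5-kb transcript then stood for 0.0083 to 0.0313 RPKM. With either CCNE1 shRNA, the CCNE1 level was below that of the matching control in 6 of 6 libraries, at 5.25 to 10.5 RPKM against 9.65 to 14.1 RPKM. All 7 pluripotency markers reached 1 RPKM in every library, but their sums differed. They summed to 1192 to 1464 RPKM in primed H1, 415 to 567 in t2iGo H1 and 365 to 596 in 5iLA H7 with shRNA. Untreated H7 had 493 RPKM primed and 466 in 5iLA. The limma tests described below called 6 of the 7 lower in t2iGo than in primed H1, next to 63.0% of all genes. POU5F1, TDGF1 and DNMT3B were called lower under each of 4 scalings. The primed H1 libraries stood apart, since NM_ rows made up 95.3% to 95.5% of their RPKM and 65.3% to 86.3% elsewhere. The t2iGo libraries went against their naive label. None of 8 naive-state markers, chosen after their values were seen, reached 1 RPKM there, and they summed to 2.38 to 3.07 RPKM. The same sum was 3.35 to 4.61 for primed H1 and 470 to 833 for the 5iLA shRNA libraries. All 4 primed-state markers reached 1 RPKM in t2iGo, among them ZIC2 at 16.2 to 21.97 RPKM. The 4 markers summed to 273 to 311 RPKM in t2iGo, 1327 to 1576 in primed H1 and 18.3 to 41.9 in 5iLA H7 with shRNA. Untreated H7 had 666 RPKM primed and 194 in 5iLA. The t2iGo libraries, below primed H1 in this sum, are called by their medium below. The untreated 5iLA library stood between, with naive markers summing to 158 RPKM.

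Collagen output differed several-fold between the cultures. Values are given below in the order control, uCCNE1 and pCCNE1 shRNA. The 43 genes summed to 352, 237 and 241 RPKM in primed H1, to 26.5, 50.2 and 45.4 RPKM in 5iLA H7 and to 167, 214 and 287 RPKM in t2iGo H1. Untreated H7 summed to 94.1 RPKM when primed and to 137 RPKM in 5iLA. The 3 sums of 5iLA shRNA cells lay below all others, including that of untreated 5iLA cells of the same line. As a share of all NM_ values, collagens took 0.072% to 0.103% (primed H1), 0.017% to 0.048% (5iLA H7 with shRNA) and 0.108% to 0.21% (t2iGo H1). In bulk RNA, fewer cells of a collagen-making type and less collagen RNA per cell cannot be told apart.

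Of the 43 genes, 17 reached 10 RPKM in at least 1 library, 14 peaked between 1 and 10 RPKM, and 12 never reached 1 RPKM. The leading chain also changed with the culture. It was COL18A1 (48.9 RPKM), COL6A1 (35.2 RPKM) and COL1A2 (26.5 RPKM) in the 3 primed H1 libraries, whereas COL3A1 led all 3 t2iGo libraries with 28.4%, 40.7% and 47.5% of collagen RPKM. COL4A1 led the 5iLA control and pCCNE1 libraries and untreated primed H7, and COL1A2 led the 5iLA uCCNE1 library and untreated 5iLA H7.

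**Figure D1:**
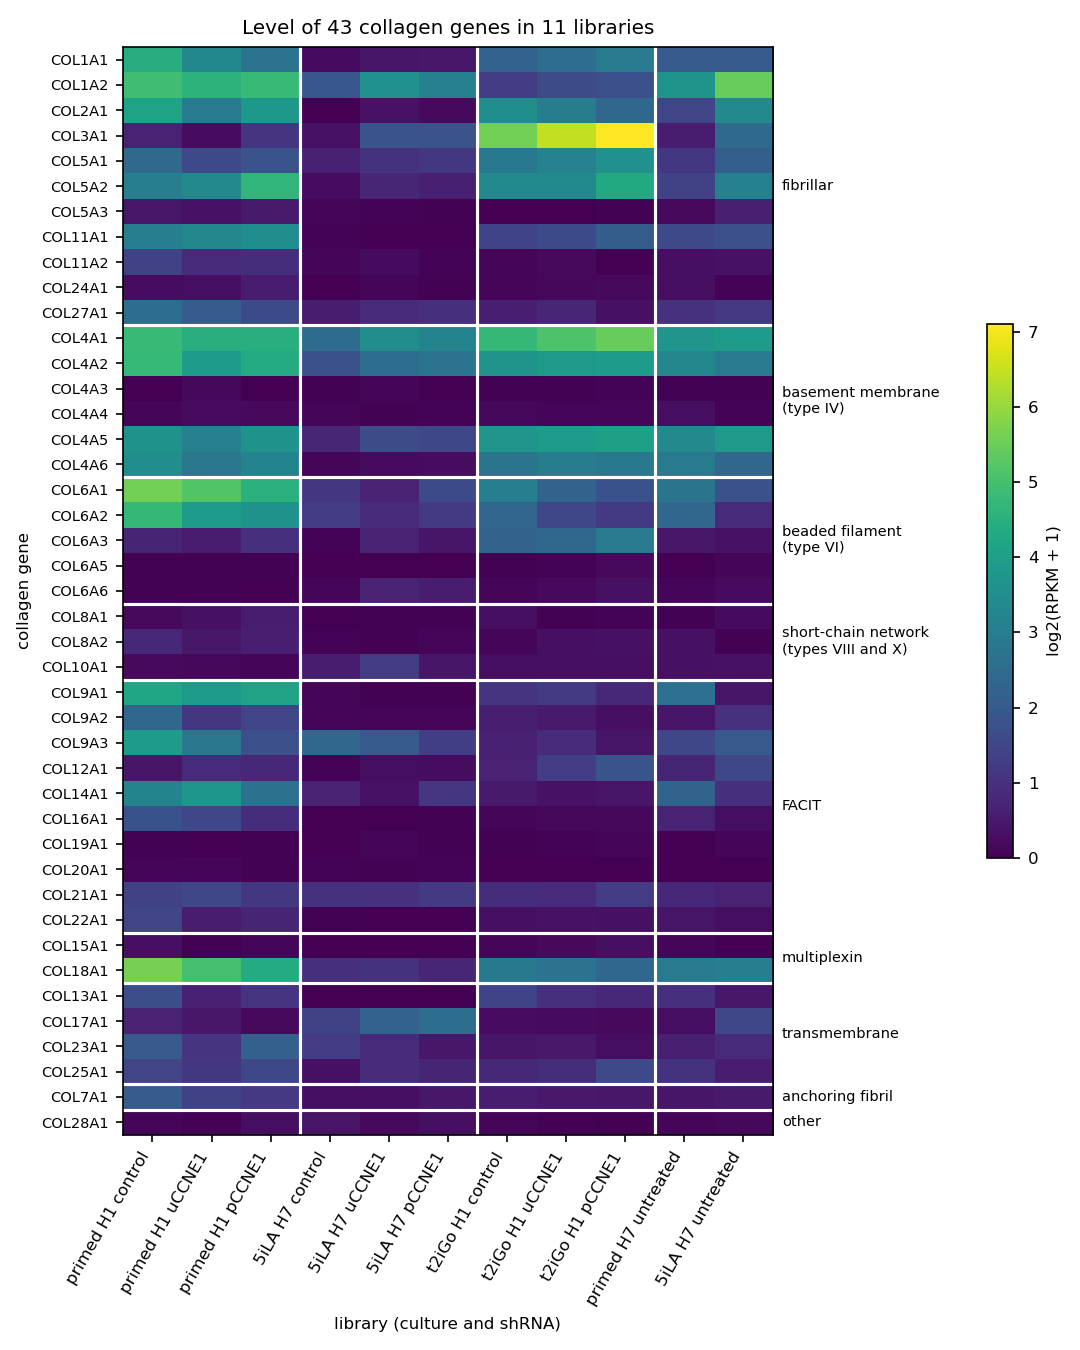
Level of each of the 43 collagen genes (rows, grouped by class) in each of the 11 libraries (columns), as log2(RPKM + 1) on the colour scale. COL3A1 is the brightest row in the 3 t2iGo libraries, and most rows are darkest in the 3 libraries of 5iLA H7 with shRNA.

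Among the fibrillar chains, COL3A1 (NM_000090, chromosome 2), which forms type III collagen alone, spanned the most RPKM. It stood at 0.598, 0.180 and 1.08 RPKM in primed H1 and at 0.269, 2.60 and 2.52 RPKM in 5iLA H7. In t2iGo H1 it stood at 47.3, 86.9 and 137 RPKM. Untreated H7 had 0.466 RPKM (primed) and 4.44 RPKM (5iLA). All t2iGo values lay above every other library, whereas primed H1 and 5iLA H7 overlapped. The share of all genes set apart in this way is not given here.

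The chains of type V collagen, which nucleates type I fibrils, had smaller spans. COL5A1 (NM_000093, chromosome 9) was at 4.46, 1.99 and 2.52 RPKM in primed H1, 0.559, 1.05 and 1.21 in 5iLA H7 and 6.26, 7.93 and 11.05 under t2iGo. COL5A2 (NM_000393, chromosome 2) was at 7.27, 9.24 and 24.8 RPKM in primed H1, 0.187, 0.713 and 0.546 in 5iLA H7 and 9.58, 9.51 and 18.8 under t2iGo. For COL5A1 the t2iGo values lay above the primed ones, whereas for COL5A2 they overlapped. In untreated H7, COL5A1 was at 1.23 RPKM primed and 3.44 in 5iLA, and COL5A2 at 1.63 and 7.71.

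The 2 chains that build type I collagen did not keep a common ratio. COL1A1 (NM_000088, chromosome 17) was at 20.6, 9.01 and 5.53 RPKM in primed H1, 0.163, 0.327 and 0.363 in 5iLA H7 and 3.70, 4.79 and 6.73 under t2iGo. COL1A2 (NM_000089, chromosome 7) was at 29.6, 23.2 and 26.5 RPKM in primed H1, 2.77, 10.96 and 7.49 in 5iLA H7 and 1.41, 2.06 and 2.31 under t2iGo. The ratio of COL1A2 to COL1A1 was thus 1.44, 2.57 and 4.79 in primed H1, 17.1, 33.5 and 20.6 in 5iLA H7 and 0.382, 0.431 and 0.343 under t2iGo. In 5iLA H7 with shRNA, COL1A1 rested on an estimated 18, 25 and 32 reads, so the size of the ratio there is uncertain.

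Untreated primed H7 had COL1A1 at 3.08 RPKM and COL1A2 at 11.7, a ratio of 3.796, and untreated 5iLA H7 had 3.04 and 43.2, a ratio of 14.2. COL1A1 was thus the more abundant type I chain, per length, in t2iGo H1 alone of the cultures measured. GC content of the transcripts was 61.1% for COL1A1 and 54.8% for COL1A2.

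COL2A1 (NM_033150, chromosome 12), the main chain of cartilage fibres, was at 16.4, 6.75 and 12.7 RPKM in primed H1 and at 10.6, 6.95 and 4.20 RPKM in t2iGo H1, which overlapped. In 5iLA H7 it was at 0.0117, 0.279 and 0.135 RPKM, and in untreated H7 at 1.81 RPKM primed and 9.22 in 5iLA. The cartilage markers SOX9, ACAN, MATN1, MATN3, COMP and HAPLN1 summed to 3.77 to 11.9 RPKM over the shRNA libraries. They summed to 5.51 RPKM in untreated primed H7 and to 40.9 RPKM in untreated 5iLA H7.

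COL11A1 (NM_001854, chromosome 1), a chain of the type XI collagen that fills cartilage fibres, was at 7.18, 8.82 and 10.1 RPKM in primed H1 and 1.68, 2.01 and 3.27 in t2iGo H1. It was at 0.0585 RPKM in the 5iLA control library and listed at 0 in the other two 5iLA shRNA libraries. Untreated H7 held 1.99 RPKM primed and 2.301 in 5iLA. COL27A1 reached at most 4.89 RPKM and COL11A2 at most 1.61, both in the primed H1 control library. COL5A3 and COL24A1 stayed at or below 0.556 RPKM in all 11 libraries.

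**Figure D2:**
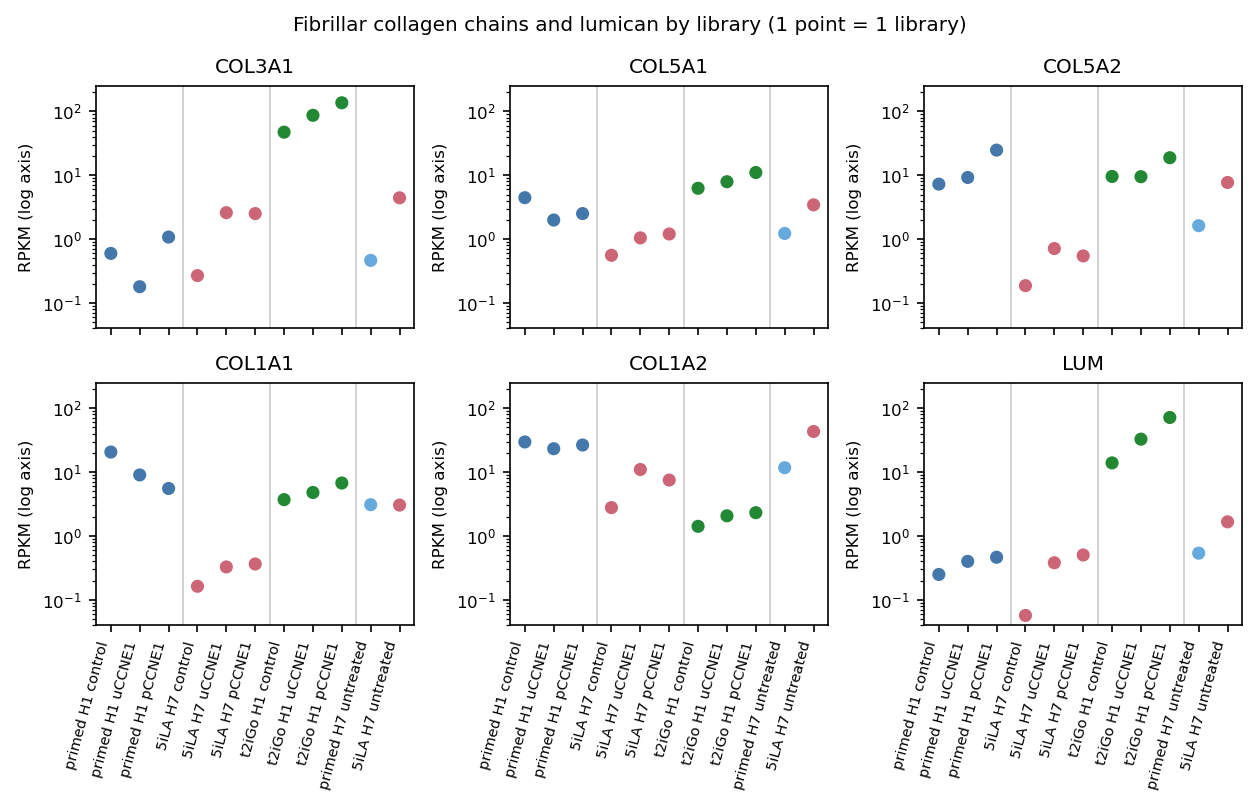
RPKM on a log axis of 5 fibrillar collagen chains and of the fibre-binding proteoglycan LUM, 1 point per library, ordered by culture and then by shRNA. COL3A1 and LUM are highest in the 3 t2iGo libraries, at 47.3 to 137 and 13.9 to 71.5 RPKM, while COL1A2 is highest in untreated 5iLA H7 at 43.2 RPKM.

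Markers of fibroblasts and feeder cells moved with COL3A1 in part. The 19 markers summed to 638, 723 and 789 RPKM in t2iGo H1, with 11, 12 and 15 of them at 1 RPKM or more. Their sum was 469 to 572 RPKM (8 or 9 markers) for primed H1 and 102 to 186 (5 or 6) for 5iLA H7 with shRNA. Untreated H7 had 150 RPKM (6) primed and 277 (12) in 5iLA. LUM (lumican), which binds collagen fibres, was at 13.9, 32.7 and 71.5 RPKM in t2iGo and at most 1.66 elsewhere. Within the same list, DCN reached at most 2.71 RPKM and POSTN at most 3.796, both in the t2iGo pCCNE1 library. FAP stayed at or below 0.0628, and DPT was listed at 0 in all 9 shRNA libraries. Other markers of the list were higher in t2iGo. Against primed H1, limma called 7 of 12 tested markers higher and 4 lower, next to 8.77% and 63.0% of all genes, and the 7 (FN1, LUM, MFAP5, PDGFRA, SPARC, TWIST1 and VIM) held under each of 4 scalings described below. FN1 (fibronectin) was at 132, 146 and 175 RPKM in t2iGo against 20.1 to 23.2 in primed H1, and PDGFRA, a growth factor receptor of mesenchyme, at 3.71, 4.30 and 5.10 against 0.369 to 0.984. SPARC, a collagen-binding matrix protein, was at 107, 156 and 200 RPKM against 72.4 to 90.0, TWIST1 at 1.04 to 2.20 against 0.0976 to 0.184, and MFAP5 at 0.339, 1.13 and 3.18 against at most 0.0357. Without the uCCNE1 libraries, limma no longer called MFAP5, SPARC and VIM (adjusted p = 0.0578, 0.0707 and 0.0535), nor SPARC without the pCCNE1 libraries (0.0809), and MFAP5 moved from 1.15 to 0.72 without the latter. The 4 called lower were FBLN1, FBLN2, S100A4 and THY1, and only THY1 held under each of the 4 scalings. THY1, also a marker of primed stem cells, was at 94.5 to 195 RPKM in primed H1 and 6.73 to 8.91 in t2iGo.

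Endoderm markers were highest in the same 3 libraries as COL3A1. The 10 genes summed to 99.4, 178 and 164 RPKM in t2iGo H1 and to at most 10.8 RPKM in any other library. APOA2, an apolipoprotein of liver and yolk sac, was at 40.6, 105 and 97.6 RPKM in t2iGo. Mesoderm markers were highest in these libraries too, at lower levels. The 7 genes summed to 15.6, 9.25 and 6.96 RPKM in t2iGo H1 and to at most 6.08 RPKM in any other library. Against primed H1, limma called 2 of 3 tested mesoderm markers higher (EOMES and HAND1, under each of 4 scalings too) and 0 lower, and MIXL1 was not called. HAND1 is also on the list of 8 trophoblast markers, of which limma called 3 of 4 tested higher and 1 lower. Over all genes the higher and lower shares were 8.77% and 63.0%. The trophoblast markers summed to 9.48 to 12.9 RPKM in t2iGo H1, 5.80 to 12.3 in primed H1 and 61.9 to 71.5 in 5iLA H7 with shRNA. In untreated H7 they summed to 3.31 RPKM primed and 49.3 in 5iLA. Smooth muscle markers were not highest in t2iGo H1, summing to 30.7 to 44.2 RPKM against 75.1 to 227 in primed H1. The part of other cell types in the collagen levels was not tested.

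The type IV chains are encoded in 3 head-to-head gene pairs, each divergent from a shared stretch of DNA. The stretches are shown because members of a pair were read side by side in every library. They come from RefSeq on build GRCh38.p14, plus strand, 5′ to 3′, and 31 of the 43 genes had an entry in the promoter table used. The first spans all 126 bases between the starts of COL4A1 and COL4A2, chr13:110307158-110307283. The others are the 250 bases just before the start of COL4A5, chrX:108439588-108439837, and of COL4A3, chr2:227164374-227164623, out of 380 and 419 bases between the starts of each pair. Capitals mark matches to the GC box GGGCGG or the CCAAT box CCAAT, on either strand.
COL4A1/COL4A2: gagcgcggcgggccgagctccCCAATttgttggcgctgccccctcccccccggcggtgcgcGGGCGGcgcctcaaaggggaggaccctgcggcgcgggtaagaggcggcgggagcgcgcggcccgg
COL4A6/COL4A5: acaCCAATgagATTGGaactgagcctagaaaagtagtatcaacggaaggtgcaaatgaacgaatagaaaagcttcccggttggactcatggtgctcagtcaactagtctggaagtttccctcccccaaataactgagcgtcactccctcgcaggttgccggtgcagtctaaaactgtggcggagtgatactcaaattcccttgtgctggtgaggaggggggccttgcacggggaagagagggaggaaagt
COL4A4/COL4A3: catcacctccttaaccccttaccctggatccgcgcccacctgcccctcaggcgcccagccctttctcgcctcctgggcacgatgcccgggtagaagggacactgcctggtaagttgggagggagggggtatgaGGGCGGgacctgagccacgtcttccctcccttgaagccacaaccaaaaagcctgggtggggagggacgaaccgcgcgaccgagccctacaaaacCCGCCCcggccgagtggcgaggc

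The COL4A1/COL4A2 stretch held 1 GC box and 1 CCAAT box. Of 35116 RefSeq promoters cut to the same length, 34.6% held a GC box and 21.1% a CCAAT box. The COL4A6/COL4A5 stretch held 2 CCAAT boxes (32.0% of promoters held at least 1) and no GC box, and the COL4A4/COL4A3 stretch held 2 GC boxes (42.6%) and no CCAAT box. No stretch held the letters TATAAA, which 5.9% of the 126-base and 10.7% of the 250-base promoter windows held. GC content was 80.2%, 51.2% and 66.4%.

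COL4A1 and COL4A2 (NM_001845 and NM_001846, chromosome 13) encode the chains of the common type IV network. COL4A1 was at 26.6, 20.9 and 21.5 RPKM in primed H1, 4.75, 10.3 and 8.18 in 5iLA H7 and 25.6, 33.7 and 42.9 under t2iGo. COL4A2 was at 26.0, 13.9 and 19.5 RPKM in primed H1, 2.40, 4.91 and 5.54 in 5iLA H7 and 11.8, 13.3 and 14.05 under t2iGo. Both were lowest in the 3 libraries of 5iLA H7 with shRNA. Untreated H7 held COL4A1 at 12.0 RPKM primed and 14.1 in 5iLA, and COL4A2 at 8.71 and 6.52.

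COL4A5 and COL4A6 (NM_033380 and NM_001847, chromosome X) encode chains of specialised basement membranes. COL4A5 was at 11.7, 7.60 and 11.3 RPKM in primed H1, 0.687, 2.10 and 1.91 in 5iLA H7 and 12.2, 13.9 and 15.5 under t2iGo. COL4A6 was at 10.3, 6.08 and 8.29 RPKM in primed H1, 0.0619, 0.155 and 0.186 in 5iLA H7 and 5.66, 6.9995 and 6.33 under t2iGo. The ratio of COL4A5 to COL4A6 was 1.13 to 1.36 in primed H1, 1.99 to 2.45 in t2iGo H1 and 10.3 to 13.6 in 5iLA H7 with shRNA. In those 5iLA libraries COL4A6 rested on an estimated 7, 12 and 16 reads, so the size of the ratio there is uncertain. Untreated 5iLA H7 did not share these low levels, with COL4A5 at 13.0 RPKM and COL4A6 at 4.13, next to 9.08 and 6.56 in untreated primed H7. COL4A3 and COL4A4, known from kidney and lung basement membranes, stayed at or below 0.196 RPKM in all 11 libraries.

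**Figure D3:**
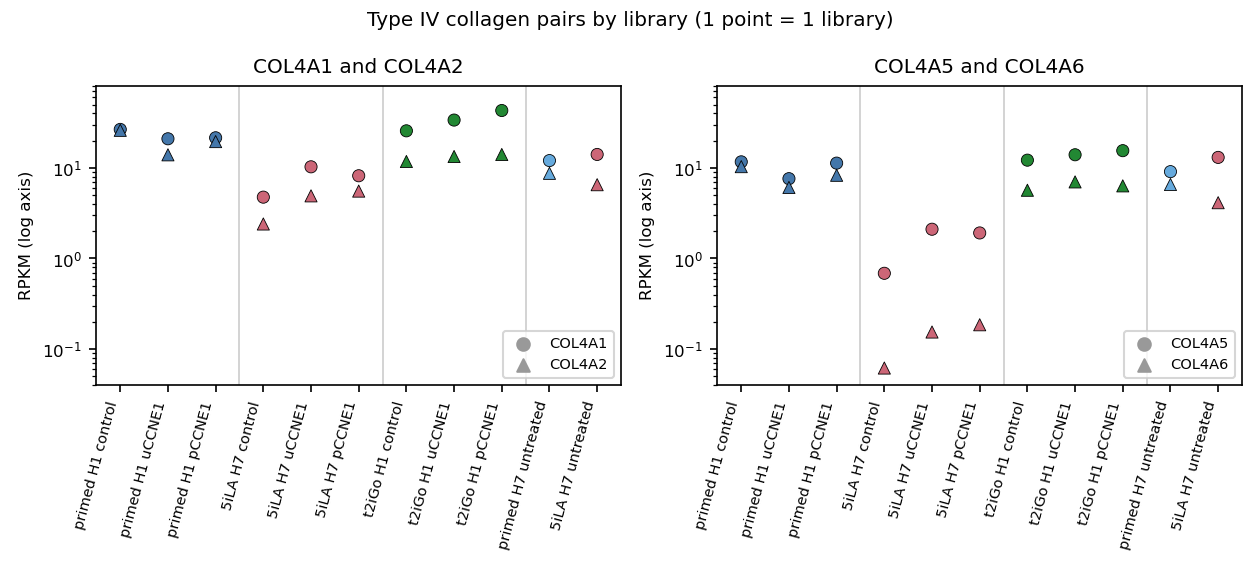
RPKM on a log axis of the paired type IV chains, 1 point per gene and library. COL4A5 and COL4A6 lie close together in primed H1 and far apart in 5iLA H7 with shRNA, where COL4A6 is at 0.0619 to 0.186 RPKM.

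Type VI collagen, a beaded filament made of 3 different chains, was lopsided as well. COL6A1 (NM_001848, chromosome 21) was at 47.5, 35.2 and 22.4 RPKM in primed H1, 1.196, 0.606 and 2.01 in 5iLA H7 and 7.16, 3.78 and 2.43 under t2iGo. COL6A2 (NM_001849, chromosome 21) was at 25.5, 13.8 and 11.6 RPKM in primed H1, 1.35, 0.830 and 1.31 in 5iLA H7 and 3.96, 1.85 and 1.32 under t2iGo. The third chain, COL6A3 (NM_057164, chromosome 2), was at 0.667, 0.478 and 0.948 RPKM in primed H1, 0.0587, 0.599 and 0.354 in 5iLA H7 and 3.79, 4.16 and 6.59 under t2iGo. COL6A3 was thus far below its partners in primed H1 and above both of them in the t2iGo uCCNE1 and pCCNE1 libraries. In untreated H7, COL6A1, COL6A2 and COL6A3 were at 5.66, 4.13 and 0.383 RPKM primed and at 2.42, 0.813 and 0.282 in 5iLA. COL6A5 and COL6A6 stayed at or below 0.610 RPKM.

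Several FACIT collagens, which sit on the surface of fibres, had their highest levels in primed H1. COL9A1 (NM_078485, chromosome 6), a chain of cartilage type IX collagen, was at 17.2, 13.6 and 16.0 RPKM in primed H1 and 5.02 in untreated primed H7. It was at 1.12, 1.30 and 0.763 RPKM in t2iGo H1, at most 0.0767 in 5iLA H7 with shRNA and 0.332 in untreated 5iLA H7. Its partner COL9A2 was at 4.13, 1.22 and 1.78 RPKM in primed H1 and at most 1.03 RPKM elsewhere.

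COL9A3 (NM_001853, chromosome 20), the third chain of type IX, did not follow its partners. It was at 13.9, 6.01 and 2.33 RPKM in primed H1, 4.05, 3.05 and 1.51 in 5iLA H7 and 0.570, 0.873 and 0.317 under t2iGo, and at 1.83 and 2.98 in untreated H7 (primed and 5iLA). COL14A1 (NM_021110), which binds fibrils, was at 8.28, 12.3 and 5.30 RPKM in primed H1, 0.630, 0.273 and 1.19 in 5iLA H7, 0.437, 0.274 and 0.320 in t2iGo H1, and 3.84 and 0.933 in untreated H7 (primed and 5iLA). Of the other FACIT genes, COL12A1 peaked at 2.58 RPKM in the t2iGo pCCNE1 library and COL16A1 at 2.43 in the primed H1 control. COL21A1 peaked at 1.83 and COL22A1 at 1.81, and COL19A1 and COL20A1 stayed at or below 0.101 RPKM.

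COL18A1 (NM_130445, chromosome 21), a basement membrane collagen whose end fragment is endostatin, was at 48.9, 31.2 and 19.6 RPKM in primed H1, and its control library value was the highest of any collagen in primed H1. It was at 0.983, 1.07 and 0.696 RPKM in 5iLA H7, 6.39, 5.53 and 4.29 in t2iGo H1, and 6.65 and 7.28 in untreated H7 (primed and 5iLA). The gene overlaps an antisense gene, and whether counting used strand is not given in the sources used here, so the values may hold reads of both. Its relative COL15A1 stayed at or below 0.227 RPKM.

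COL17A1 (NM_000494, chromosome 10), a membrane collagen of the hemidesmosomes that hold epithelium to its base, went the other way. It was at 1.61, 3.73 and 4.87 RPKM in 5iLA H7 and 1.87 in untreated 5iLA H7, and at most 0.621 RPKM in every primed or t2iGo library. The other membrane collagens COL13A1, COL23A1 and COL25A1 peaked at 2.24, 3.54 and 1.98 RPKM, and COL13A1 was listed at 0 in all 3 libraries of 5iLA H7 with shRNA. COL7A1, which forms anchoring fibrils, was at 3.15, 1.60 and 1.28 RPKM in primed H1 and at most 0.465 elsewhere. COL8A1, COL8A2 and COL28A1 stayed at or below 0.768 RPKM, and COL10A1 peaked at 1.34 RPKM in the 5iLA uCCNE1 library.

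For the tests, genes with a mean of at least 1 RPKM over the 9 shRNA libraries were kept, 23 of the 43 collagens among 12116 genes. Differences are on the log2(RPKM + 1) scale, which understates changes of low genes. The culture comparisons use the 3 shRNAs in place of replicates, so their p-values measure only the spread between these libraries.

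Between t2iGo and primed H1, the share of RPKM in NM_ rows and a trend with GC content moved with the medium, so the medium and whatever else set the primed libraries apart cannot be told apart. Limma called 14 of the 23 collagens, 3 higher and 11 lower in t2iGo. Over all genes it called 71.8%, of which 8.77% of genes were higher and 63.0% lower, and the median of all genes lay at -0.82 on the log2 scale, next to -0.65 for the 23 collagens. COL3A1 was higher by 5.73 ± 0.30 (SE, adjusted p = 8.65e-08), COL6A3 by 1.76 ± 0.20 (adjusted p = 9.70e-06) and COL5A1 by 1.25 ± 0.25 (adjusted p = 8.59e-04). Among the 11 lower genes, COL1A2 differed by -3.23 ± 0.30 (adjusted p = 2.11e-06), COL9A1 by -3.01 ± 0.17 (1.54e-07), COL14A1 by -2.78 ± 0.28 (3.60e-06), COL6A1 by -2.76 ± 0.30 (6.62e-06) and COL11A1 by -1.57 ± 0.18 (1.22e-05). COL6A2, COL18A1, COL9A3, COL27A1, COL23A1 and COL1A1 were also called lower, by limma differences of -2.41, -2.34, -2.17, -1.51, -1.36 and -0.92. COL1A1, with an adjusted p of 0.0344 by limma, was at -0.27 (0.421) without the control libraries and -0.98 (0.119) without the uCCNE1 libraries. Over all alternatives its adjusted p ran from 1.75e-04 to 0.839.

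The split into higher and lower genes depended on the scaling. Quantile normalization gave 7 higher and 9 lower collagens of 23 (34.2% and 33.1% of all genes), and median-ratio scaling 6 and 10 (28% and 37.5%). Rescaling on NM_ rows gave 7 and 10 (40% and 29.8%), and adjustment for transcript GC content 11 and 5 (26.7% and 25.1%). These 4 scalings brought the median of all genes to between -0.11 and 0.16. Of the 14 calls, 8 held their direction and threshold under all 4, namely COL3A1, COL6A3 and COL5A1 (higher) and COL1A2, COL9A1, COL14A1, COL6A1 and COL11A1 (lower). COL3A1 ranged from 6.05 to 6.79 and COL1A2 from -2.49 to -1.91 over them. COL5A2, not called on the deposited scale, was called higher in t2iGo under each of the 4 scalings, by 0.70 to 1.07.

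Transcript GC content moved with these differences. Across 11965 genes the difference between t2iGo and primed H1 had a Spearman correlation of -0.61 with GC content, as a description over genes that share the same libraries, and -0.26 across the 23 collagens. Collagen transcripts are rich in GC, with a median of 55.4% against 49.8% for all NM_ genes, and 41.9% of collagens reached 60% GC against 16.7% of NM_ genes. After the GC adjustment, COL18A1, COL6A2 and COL9A3 differed by -0.21, -0.31 and -0.03 and were no longer called, and COL1A1, COL23A1 and COL27A1 changed sign to 0.96, 0.72 and 0.38. COL25A1, COL17A1 and COL2A1, not called on the deposited scale at -0.30, -0.24 and -0.65, were called higher after it by 1.12, 1.21 and 1.38 (limma, adjusted p = 0.00564, 0.00957 and 0.00672). Even so the type I chains stayed unequal, with COL1A1 at 0.96 and COL1A2 at -1.91.

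The type IV chains were not called on the deposited scale, at 0.53 ± 0.25 for COL4A1, 0.43 ± 0.24 for COL4A5, -0.31 ± 0.20 for COL4A6 and -0.53 ± 0.27 for COL4A2 (limma, adjusted p = 0.0782, 0.124, 0.177 and 0.0996). Under the 4 scalings COL4A1 was called higher in t2iGo each time, by 1.30 to 1.91, and COL4A5 by 1.15 to 1.49. On the deposited scale both were also called without the control libraries, at 0.81 and 0.61 (limma, adjusted p = 0.0112 and 0.0406). COL4A2 and COL4A6 changed sign, to between 0.23 and 1.40 and between 0.39 and 0.97.

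**Figure D4:**
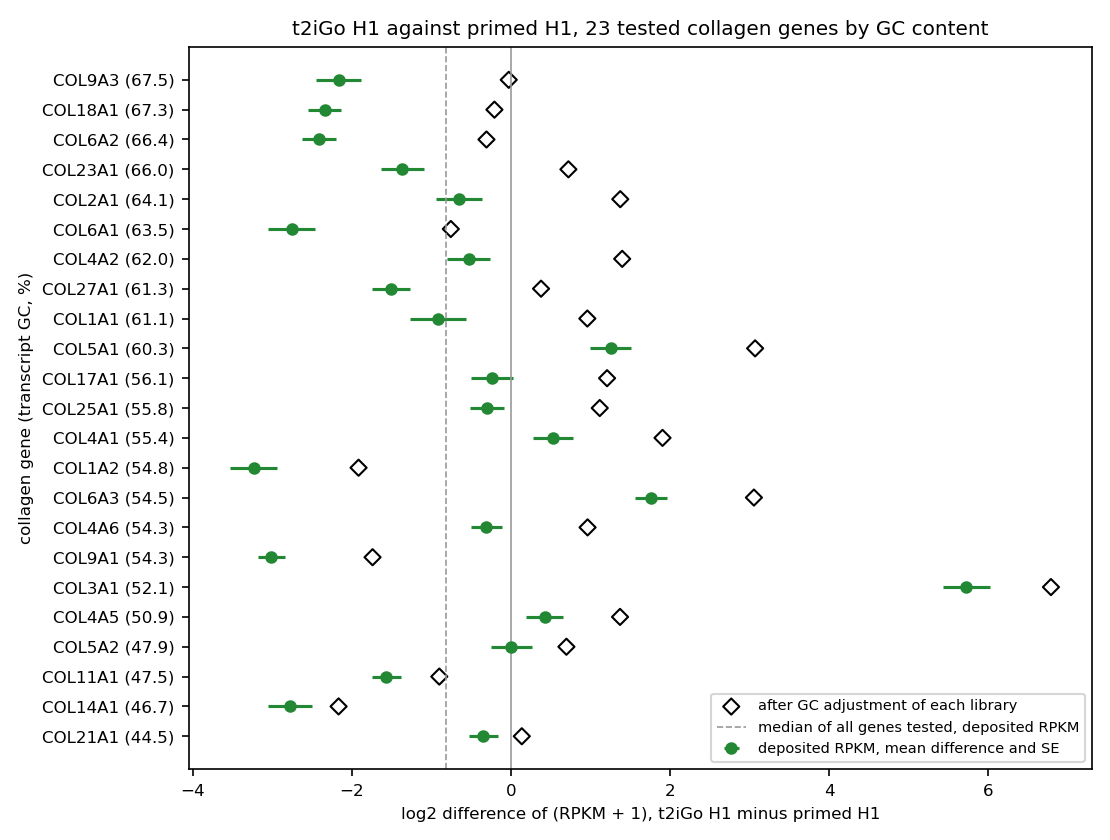
Difference between t2iGo and primed H1 (log2 scale) for the 23 tested collagens, ordered by transcript GC content, as deposited (green, bars are SE) and after GC adjustment (open diamonds). COL3A1 lies at 5.73 and 6.79, and GC-rich genes such as COL18A1 move from -2.34 to -0.21.

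Between 5iLA H7 and t2iGo H1, limma called 18 of the 23 collagens, 3 higher and 15 lower in 5iLA. Over all genes it called 55.0%, with 14.9% higher and 40.1% lower, and the median lay at -0.31 for all genes and -1.46 for the collagens. The largest differences were COL3A1 at -5.05 ± 0.30 (adjusted p = 2.20e-07), COL5A2 at -3.15 ± 0.26 (2.15e-06), COL2A1 at -2.79 ± 0.29 (1.45e-05), COL4A6 at -2.69 ± 0.20 (1.03e-06) and COL4A5 at -2.58 ± 0.24 (5.35e-06). COL17A1 was higher in 5iLA by 1.85 ± 0.27 (adjusted p = 1.62e-04), COL1A2 by 1.32 ± 0.30 (0.00296) and COL9A3 by 1.24 ± 0.28 (0.00328).

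All 4 tested type IV chains, all 3 tested type VI chains and 6 of 8 tested fibrillar chains were lower in 5iLA H7. Of the 18 calls, 17 held under the 4 scalings, and COL6A2, at -0.58, was lost under 3 of them. Without the control shRNA libraries, COL6A1 was at -0.88 (adjusted p = 0.103 by limma) and COL6A2 at -0.32 (adjusted p = 0.291). Without the uCCNE1 libraries, limma gave COL6A1 at -1.04 (adjusted p = 0.0704) and COL6A2 at -0.54 (adjusted p = 0.195). Over all alternatives the limma adjusted p ran from 1.56e-05 to 0.103 for COL6A1 and from 0.00479 to 0.3004 for COL6A2.

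The untreated H7 pair, 1 library against 1 and so without a test, showed another pattern. Of 20 collagens with a mean of at least 1 RPKM, 5 were at least 2-fold higher in 5iLA and 3 at least 2-fold lower, next to 11% and 3.94% of 11015 genes (15.0% in either direction). COL3A1 differed by 1.89 on the log2(RPKM + 1) scale, COL2A1 by 1.87, COL1A2 by 1.80, COL5A2 by 1.73 and COL17A1 by 1.25. COL9A1 differed by -2.18, COL6A2 by -1.50 and COL14A1 by -1.32. Rescaling on NM_ rows or by median ratios gave 4 higher and 4 lower, with no share of all genes given on those scales. The untreated 5iLA library also held VIM, a filament protein of mesenchyme and primed cells, at 120 RPKM, next to 0.507 to 2.09 in 5iLA H7 with shRNA, and the part of other cell types in its collagens was not tested.

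The shRNA comparisons used the 3 cultures in place of replicates. For pCCNE1 against control, limma called 0 of 23 collagens and 0% of all genes, higher or lower. At an unadjusted p under 0.05 there were 5 collagens and 1792 of 12116 genes. COL3A1 was higher with pCCNE1 shRNA than with control in each of the 3 cultures, by a mean of 1.12 ± 0.30, and COL5A2 likewise by 0.98 ± 0.26 (limma, adjusted p = 0.200 for both). COL9A3 was lower in each culture, by a mean of -1.14 ± 0.28 (limma, adjusted p = 0.200). COL6A2 and COL18A1 averaged -0.73 and -0.66 (limma, adjusted p = 0.203 and 0.208).

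The COL9A3 value rested on which cultures were fitted. Without the t2iGo libraries limma gave -1.59 with an adjusted p of 0.00116, and 94 of 12116 genes passed. Its transcript has 67.5% GC, and after the GC adjustment the difference over the 3 cultures was -0.61 (limma, adjusted p = 0.667), the lowest and highest p over the alternatives run. LUM, from the list of fibroblast and feeder markers, averaged 1.01 ± 0.31 with pCCNE1 shRNA (limma, adjusted p = 0.203), beside the COL3A1 value.

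For uCCNE1 against control and for pCCNE1 against uCCNE1, limma called 0 of 23 collagens and 0% of all genes as well. At an unadjusted p under 0.05 there were 1 and 2 collagens, against 1236 and 495 genes in all. COL6A2 averaged -0.67 ± 0.21 for uCCNE1 (limma, adjusted p = 0.362), close to its pCCNE1 value, which shares the same control libraries. Between the 2 CCNE1 shRNAs, COL9A3 averaged -0.76 ± 0.28 and COL5A2 0.70 ± 0.26 (limma, adjusted p = 0.990 for both). A p that misses the threshold does not show that the shRNAs left collagens as they were.

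Within single cultures there was 1 library per side and so no test. With pCCNE1 shRNA, 6 of 23 collagens lay above their control in primed H1, 17 of 23 in 5iLA H7 and 13 of 23 in t2iGo H1. The median of all genes lay at 0.01, -0.30 and -0.11 in these cultures. In primed H1, pCCNE1 shRNA went with 1 collagen at least 2-fold higher and 5 at least 2-fold lower out of 23, next to 0.924% and 3.61% of all genes (4.53% in either direction). After GC adjustment this split became 2 and 2, with no share of all genes given on that scale. COL5A2 was higher by 1.64, and COL9A3, COL1A1, COL18A1, COL6A2 and COL6A1 differed by -2.17, -1.72, -1.27, -1.08 and -1.05. With uCCNE1 shRNA in primed H1, 0 were 2-fold higher and 3 were 2-fold lower (COL2A1, COL1A1 and COL9A3, at -1.17, -1.11 and -1.09), next to 0.619% and 2.82% of genes (3.44% in either direction). After GC adjustment these were at -0.66, -0.74 and -0.43, and 0 collagens passed 2-fold, again with no share of all genes given.

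In 5iLA H7, pCCNE1 shRNA went with 3 collagens at least 2-fold higher (COL3A1 by 1.47, COL1A2 and COL17A1 both by 1.17) and 1 lower (COL9A3, -1.01). The background was 0.875% higher and 4.90% lower (5.78% in either direction). With uCCNE1 shRNA, 2 were at least 2-fold higher (COL1A2 by 1.66 and COL3A1 by 1.5) and 0 lower, next to 0.528% and 4.94% of genes (5.46% in either direction). Counts in this culture moved with the scaling, to 6 or 7 higher and 0 lower for uCCNE1 and to 5 or 6 higher and 0 lower for pCCNE1 under NM_, median-ratio and GC scaling. The shares of all genes above belong to the deposited scale, and none are given for these scalings. Without such shares, the rescaled collagen counts cannot be set against those of all genes. COL3A1, COL1A2 and COL17A1 were low in the 5iLA control library, at 0.269, 2.77 and 1.61 RPKM, and that library is the reference of both comparisons.

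In t2iGo H1, pCCNE1 shRNA went with 1 collagen at least 2-fold higher (COL3A1 by 1.51) and 3 lower (COL6A1 by -1.25, COL2A1 by -1.16 and COL6A2 by -1.10), next to 0.735% and 2.72% of genes (3.46% in either direction). After the GC adjustment this split became 6 higher and 0 lower, with no share of all genes given on that scale. With uCCNE1 shRNA there were 0 in each direction, next to 0.380% and 0.636% of genes (1.02% in either direction), and the difference of COL3A1 was 0.86.

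GC content moved with the pCCNE1 differences too. Across genes, the Spearman correlation of the difference with GC content was -0.59 (primed H1), 0.06 (5iLA H7) and -0.53 (t2iGo H1). Across the 23 collagens, as a description, it was -0.65, -0.28 and -0.55. In primed H1 the 10 collagens with at least 60% GC had a median of -1.01 and the 13 others -0.10. After GC adjustment in primed H1, COL5A2 was at 1.54, COL9A3 at -1.17 and COL1A1 at -1.18, whereas COL18A1, COL6A2 and COL6A1 were at -0.29, -0.15 and -0.33.

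**Figure D5:**
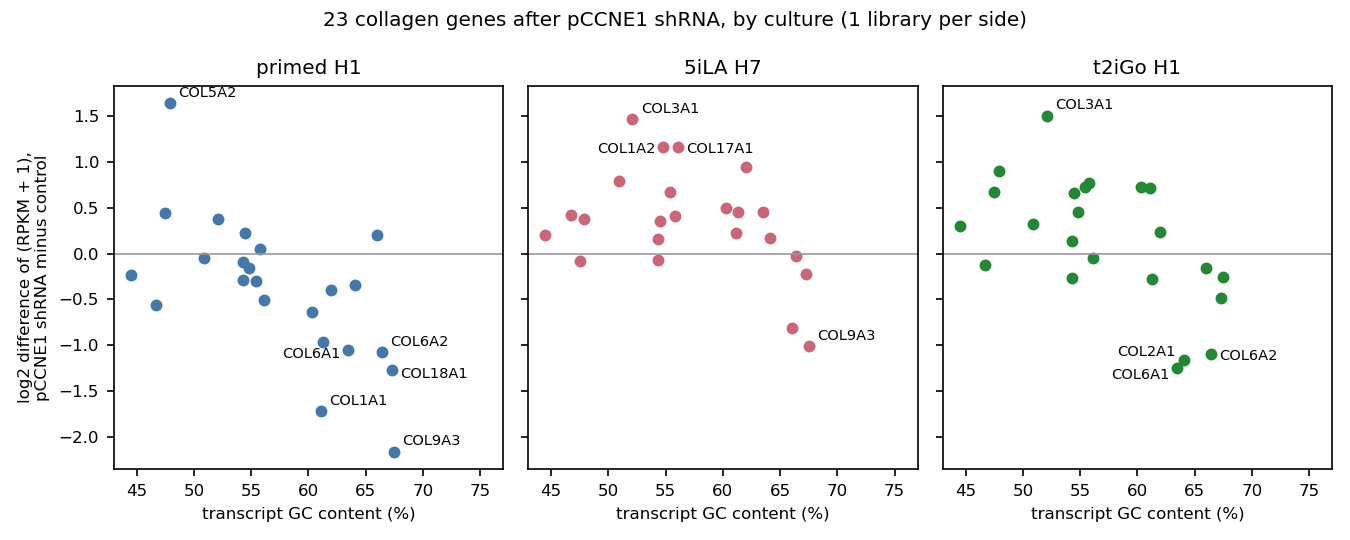
Difference between pCCNE1 and control shRNA (log2 scale) against transcript GC content (%) for 23 collagens in each of 3 cultures, 1 library per side, with names at differences of at least 1. Points fall with GC content in primed and t2iGo H1, and COL3A1 is high at 1.47 in 5iLA H7 and 1.51 in t2iGo H1.

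Whether the pCCNE1 effect differed between primed H1 and the other 2 cultures was tested in a model with an added term, which leaves 2 residual degrees of freedom. Limma called 0 of 23 collagens and 0.223% of all genes (0.107% higher and 0.116% lower). At an unadjusted p under 0.05 there were 7 collagens and 811 genes, and the median lay at 0.65 for the collagens and -0.20 for all genes. COL1A1 had the largest difference, 2.20 ± 0.39 (limma, adjusted p = 0.103). It was at 20.6 RPKM in the control and 5.53 in the pCCNE1 library of primed H1, and at 0.163 and 0.363 in 5iLA H7 and at 3.70 and 6.73 in t2iGo H1.

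For the enzymes and chaperones that make collagen, counts on the deposited scale lay near those of all genes. Between t2iGo and primed H1, limma called 1 of 20 tested synthesis and folding genes higher (MIA3, a cargo receptor for procollagen export, by 0.83) and 10 lower, next to 8.77% and 63.0% of all genes. MIA3 was no longer called by limma without the uCCNE1 libraries (0.85, adjusted p = 0.0625). SERPINH1, the collagen chaperone HSP47, was at 65.5, 59.7 and 50.6 RPKM in t2iGo and at 152, 126 and 155 in primed H1, and the prolyl isomerase FKBP10 at 13.2, 10.7 and 9.42 against 67.7, 41.5 and 46.9. This split also turned with the scaling, to 8 higher and 5 lower under quantile normalization (34.2% and 33.1% of all genes) and 11 and 1 after GC adjustment (26.7% and 25.1%). SERPINH1 ranged from -0.49 to 0.47 over the 4 scalings, so no direction is given for it, and FKBP10 was called lower under 3 of 4.

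Of 7 tested processing and cross-linking genes, 1 was called higher in t2iGo by limma and 5 lower (8.77% and 63.0% of all genes), and 3 and 1 after GC adjustment (26.7% and 25.1%). LOX, the lysyl oxidase that starts cross-linking, was at 0.746, 1.32 and 5.21 RPKM in t2iGo and 0.456, 0.505 and 0.832 in primed H1 (0.88 ± 0.30 by limma, adjusted p = 0.0207). Without the pCCNE1 libraries the LOX difference was 0.44 (limma, adjusted p = 0.114), and without the uCCNE1 libraries 1.01 (0.0563). PCOLCE, which speeds the trimming of procollagen, was at 1.27, 0.468 and 0.928 RPKM in t2iGo and 12.8, 11.4 and 5.54 in primed H1 (limma, -2.48 ± 0.28, adjusted p = 9.53e-06). Its call was lost under 1 of the 4 scalings.

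Of 11 tested basement membrane partners of type IV collagen, limma called 3 higher and 5 lower in t2iGo than in primed H1 (8.77% and 63.0% of all genes), and 7 and 0 after GC adjustment (26.7% and 25.1%). The laminin chains LAMC1 and LAMA2 and the linker NID2 were higher by 1.12, 1.19 and 1.33, and these 3 held under the 4 scalings. NID2 was at 2.05 (limma, adjusted p = 0.00106) without the control libraries and at 0.93 (0.0907) without the uCCNE1 libraries. LAMC1 was at 73.7, 73.4 and 88.2 RPKM in t2iGo and 34.3, 31.3 and 41.8 in primed H1. HSPG2 (perlecan), AGRN, LAMA5 and LAMB2 were lower by -1.62, -1.62, -2.32 and -1.98 on the deposited scale, and all 4 calls were lost after GC adjustment.

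Of 4 tested collagen receptors, DDR1, a receptor kinase, was at 7.39, 6.27 and 4.60 RPKM in t2iGo and 76.2, 55.3 and 53.8 in primed H1 (limma, -3.15 ± 0.18, adjusted p = 1.54e-07), and its call held under the 4 scalings. MRC2, an endocytic receptor, was also called lower (-0.82), under none of the 4 scalings. Limma thus called 0 receptors higher and 2 lower, next to 8.77% and 63.0% of all genes. Quantile normalization gave 2 receptors higher and 1 lower (34.2% and 33.1% of all genes). Of 7 tested proteases and inhibitors, limma called TIMP3 higher (0.41, under the 4 scalings too) and MMP14, TIMP1 and TIMP2 lower. These 1 higher and 3 lower calls stood next to 8.77% and 63.0% of all genes. TIMP3 was not called when the libraries of any 1 shRNA were left out (0.38 to 0.49, adjusted p = 0.0887 to 0.170). The 3 lower calls did not hold under all 4 scalings, and the GC adjustment gave 3 higher and 0 lower (26.7% and 25.1% of all genes).

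In 5iLA H7 against t2iGo H1, limma called 10 of 20 synthesis and folding genes lower and 3 higher, next to 40.1% and 14.9% of all genes, and 8 lower and 7 higher under quantile normalization (29% and 25.9% of all genes). LEPREL1, a prolyl 3-hydroxylase that acts on type IV collagen, was at 0.306, 1.78 and 1.47 RPKM in 5iLA and 18.7, 15.4 and 13.6 in t2iGo (-3.01 ± 0.26, adjusted p = 2.94e-06). FKBP10 was at 1.77, 1.09 and 0.643 RPKM in 5iLA (-2.50 ± 0.18 by limma, adjusted p = 8.89e-07). P4HB, a subunit of prolyl 4-hydroxylase, and the lysyl hydroxylases PLOD2 and PLOD3 were the 3 called higher, by 0.69, 0.86 and 0.45. The PLOD3 call was lost under 1 of the 4 scalings. With fewer libraries limma did not call P4HB without pCCNE1 (0.64, adjusted p = 0.125), PLOD2 without control (0.60, 0.133) or uCCNE1 (0.74, 0.156), or PLOD3 without any 1 shRNA (0.42 to 0.49). Partners LAMA1, LAMB1 and NID2 of the basement membrane were lower by -2.28, -1.97 and -2.85, beside the lower type IV chains. For pCCNE1 against control, limma called 0 genes in each of these lists.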

How the data were processed

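The authors deposited RPKM values (reads scaled for transcript length and library size), 1 row per gene, in a table of 9 shRNA libraries and a table of 2 untreated libraries. TopHat2 2.3.0, Cufflinks 1.2.1 and build hg19 are named, per the submitters' processing notes, and the sources used here do not give their settings or use of strand. Genes averaging at least 1 RPKM were analysed as log2(RPKM + 1) with limma 3.58.1 in R 4.3.3, culture and shRNA as terms over 9 libraries (4 residual degrees of freedom), Benjamini-Hochberg adjustment over all genes and a threshold of 0.05. The script was tested on simulated data. Single libraries were compared by a 2-fold rule with no test. Transcript GC content came from a GENCODE file, for 97.4% of genes, and promoters from RefSeq. Depth was estimated from RPKM steps. Collagens as a subject and all lists were chosen with earlier results of these data known, while a collagen's inclusion rests on its symbol. Values are given for collagens reaching 10 RPKM, called collagens and their partner chains, and for up to 4 or the called members of each list. Alternatives were pseudocount, filter, scaling, GC adjustment and leaving out libraries.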

Additional observations from a re-analysis of the deposited data

How the results depend on the processing

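Leaving out 1 culture in turn gave 0 to 1 collagens called for pCCNE1 against control. The other collagen counts by limma stayed within 1.5 times under every alternative run (13 to 21 for t2iGo against primed H1, 16 to 20 for 5iLA H7 against t2iGo H1), as did the untreated pair at 8 to 11. GC adjustment, the scalings of single-culture values and leaving out libraries for genes other than collagens were chosen after seeing the data. For t2iGo against primed H1 these differences changed sign: COL1A1 to 0.10 on NM_ rows and 0.96 after GC adjustment, COL23A1 to 0.72 and COL27A1 to 0.38 after GC adjustment, COL17A1 to 0.15 (quantile) and 1.21 (GC), and, under quantile, median-ratio, NM_ row and GC scaling in turn, COL2A1 to 0.18, 0.07, 0.39 and 1.38, COL21A1 to 0.46, 0.10, 0.30 and 0.14, COL25A1 to 0.51, 0.16, 0.36 and 1.12, COL4A2 to 0.29, 0.23, 0.57 and 1.40, and COL4A6 to 0.51, 0.39, 0.71 and 0.97. COL5A2, at 0.01, ranged from -0.17 to 0.20 when the libraries of 1 shRNA were left out, but from 0.70 to 1.07 under the 4 scalings. The cause was not tested. The COL1A1 call was also lost with the other pseudocount, without a filter, on 6 libraries, and without the control or uCCNE1 libraries (-0.27 and -0.98). With a pseudocount of 0.1, uCCNE1 shRNA gave 6 collagens past 2-fold in primed H1 and 10 in 5iLA H7, with no share of all genes given. The shRNA comparisons were paired by culture in each fit over several cultures, since culture was a term of the model. RPKM tables carry no counts, so depth is an estimate, and collagens under 1 RPKM are too low to compare.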

Other observations

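EMID2, the symbol in these files for the collagen gene now called COL26A1, lies outside the naming rule and was looked up after the values were seen. It was at 22.4, 15.0 and 15.2 RPKM in primed H1, 3.93, 2.26 and 2.46 in 5iLA H7, and 2.83, 1.76 and 1.23 in t2iGo H1 (control, uCCNE1 and pCCNE1), and at 3.88 and 3.59 in untreated primed and 5iLA H7. GP6, a collagen receptor known from platelets, was at 1.96, 1.37 and 1.41 RPKM in 5iLA H7 with shRNA, 0.254 in untreated 5iLA H7 and at most 0.117 elsewhere. CTSK, a collagen-degrading cathepsin, was at 15.3 RPKM in the primed H1 pCCNE1 library and at most 2.88 in the other 10 libraries. MMP1, the interstitial collagenase, was at 0.201, 0.447 and 1.24 RPKM in t2iGo H1 and listed at 0 in the other 8 libraries. LOX reached 5.21 RPKM in the t2iGo pCCNE1 library, the library with the highest COL3A1 and the lowest estimated depth.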
